A study of Homo sapiens with 12 samples.

Results

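The 8 genes SNAI1, SNAI2, ZEB1, ZEB2, TWIST1, TWIST2, FOXC2 and PRRX1 encode transcription factors of the epithelial-mesenchymal transition (EMT). They were taken by name, as the Ensembl identifiers that carry these symbols, from the 57879 genes of an RNA sequencing study of A549 cells, a human lung adenocarcinoma line. Gene levels are given in FPKM (fragments relative to transcript length and library size), so levels can be set against each other between genes. Every group was a stable A549 line made by lentiviral infection. The sh-TAF15 line carried a short hairpin RNA against TAF15, and the sh-NC line was its control with the matching empty construct. The TIF1γ line carried an expression construct for TIF1γ (gene TRIM33), and the vector line was its control with the matching empty construct. The series has 12 samples, 3 biological replicates in each of 4 groups, of which 8 libraries were analysed here: sh-TAF15 replicates 2 and 3, sh-NC replicate 2, TIF1γ replicates 2 and 3, and vector replicates 1, 2 and 3. Each group is 1 stable line, and the labels do not say whether its replicates came from separate infections, so the tests measure the spread between these libraries.

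In EMT, epithelial cells lose junctions and polarity and take on a motile, matrix-producing state. The Snail proteins (SNAI1, SNAI2) and the ZEB proteins (ZEB1, ZEB2) are zinc finger repressors that bind E-box sequences in the promoters of epithelial genes such as CDH1. The TWIST proteins are basic helix-loop-helix factors, FOXC2 is a forkhead factor and PRRX1 is a paired-related homeobox factor. All have been linked to invasion or metastasis in carcinomas, and the ZEB factors and the miR-200 microRNAs repress each other.

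Total FPKM per library lay between 881293 and 1356634, and 12132 to 12622 genes reached 1 FPKM. The steps between the lowest values gave an estimate of 16100000 to 21200000 fragments per library, with 83.5% to 86.9% of low values within 0.02 of 1, 2 or 3 whole fragments. TRIM33 was at 8.03 and 6.14 FPKM in TIF1γ libraries, against 2.23, 2.10 and 1.27 FPKM in vector libraries. The level of TAF15 was not analysed here, so the knockdown could not be checked. KRT7, a keratin of simple epithelia, was at 1516 FPKM or more in all 8 libraries. Other epithelial markers were less even. KRT19 was at 0.243 to 0.775 FPKM in sh libraries and at 26.9 to 61.7 FPKM in the others. EPCAM was at 0.436 to 1.87 FPKM in sh libraries and at 1.25 to 3.75 FPKM in the others. CDH1 was at 0.857 to 6.96 FPKM in sh libraries and at 4.27 to 10.9 FPKM in the others. Of the markers of other cell types, 3 of 7 for fibroblasts (COL1A1, COL1A2 and THY1, at most 3.64 FPKM) and 1 of 4 for leukocytes (CD68, 22.3 to 52.1 FPKM in the 8 libraries) reached 1 FPKM in a library, while the leukocyte marker CD3E and the fibroblast marker DCN were at 0 in all 8. Of 2 endothelial markers measured, none reached 1 FPKM. CDKN2A rested on an estimated 31 fragments in sh-TAF15 replicate 3, 1 in TIF1γ replicate 3 and 0 in the others. CDKN2B rested on 12 in sh-TAF15 replicate 3, 1 in sh-NC and 0 in the others. The fibroblast marker PDGFRB was also highest in sh-TAF15 replicate 3 (41 fragments, at most 13 elsewhere). MTAP was not highest there (23 fragments, against 87 in vector replicate 2). Whether sh-TAF15 replicate 3 held other cells was not tested. KRT8 and KRT18 were listed at 0 in both TIF1γ libraries and were set aside from every test.

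Promoter sequence is shown for those factors that the results turn on and that had an entry in the RefSeq promoter table (GRCh38.p14), and for 2 epithelial genes whose levels are given further on. Of the 8 factors, ZEB1, ZEB2, TWIST2 and PRRX1 had an entry there. Each sequence is the 250 bases before an annotated transcription start, 5′ to 3′ on the gene's strand, and capitals mark CAGGTG or its reverse complement CACCTG, the E-box bound by Snail and ZEB proteins.
ZEB1, chr10:31318966-31319215, plus strand: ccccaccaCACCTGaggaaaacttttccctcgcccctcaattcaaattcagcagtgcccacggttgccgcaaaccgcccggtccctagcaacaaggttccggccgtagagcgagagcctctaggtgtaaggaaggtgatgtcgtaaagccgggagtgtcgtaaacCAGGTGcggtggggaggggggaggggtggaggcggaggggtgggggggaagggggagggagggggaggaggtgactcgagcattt
ZEB2, chr2:144520120-144520369, minus strand: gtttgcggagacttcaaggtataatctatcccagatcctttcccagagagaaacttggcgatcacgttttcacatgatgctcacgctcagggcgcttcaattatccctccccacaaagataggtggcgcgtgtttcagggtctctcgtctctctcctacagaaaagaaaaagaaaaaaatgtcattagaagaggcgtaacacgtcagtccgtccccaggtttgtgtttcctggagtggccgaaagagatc
TWIST2, chr2:238847835-238848084, plus strand: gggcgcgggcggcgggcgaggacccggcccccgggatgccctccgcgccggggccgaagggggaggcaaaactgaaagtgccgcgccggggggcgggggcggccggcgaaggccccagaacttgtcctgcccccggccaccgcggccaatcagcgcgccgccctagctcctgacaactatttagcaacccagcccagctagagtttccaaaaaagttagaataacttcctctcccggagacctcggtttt
CRB3, chr19:6464021-6464270, plus strand: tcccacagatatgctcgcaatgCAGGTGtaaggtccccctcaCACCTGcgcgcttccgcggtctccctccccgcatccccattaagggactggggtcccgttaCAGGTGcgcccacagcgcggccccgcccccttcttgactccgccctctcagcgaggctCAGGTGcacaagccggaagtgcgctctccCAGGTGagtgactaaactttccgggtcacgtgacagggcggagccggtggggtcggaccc
CLDN7, chr17:7262479-7262728, minus strand: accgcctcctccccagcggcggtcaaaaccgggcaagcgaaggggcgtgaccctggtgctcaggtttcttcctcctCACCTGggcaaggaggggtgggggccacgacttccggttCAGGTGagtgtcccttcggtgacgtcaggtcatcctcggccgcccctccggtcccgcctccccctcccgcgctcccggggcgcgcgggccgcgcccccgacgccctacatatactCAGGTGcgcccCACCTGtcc
The ZEB1 window shown, the one with the most matches of 7 for this gene, held 2 E-boxes, while the windows of ZEB2, TWIST2 and PRRX1 held 0. The motif lay in 2 of 10 windows of the factors and in 17.5% of all 35116 promoter windows of the same length. It lay in 61.9% of 21 windows of genes known to be repressed by these factors, and in 11 of the 16 such genes with a window. CRB3, an apical polarity protein, and CLDN7, a tight junction claudin, had the most matches in a window, 5 and 4. The windows of CLDN1, CLDN3, CLDN4, KRT8 and MARVELD2 held 0. Among genes known to rise in EMT, 18.2% of 22 windows held it. A match describes the sequence and does not show binding in these cells.

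Of the 8 factors, 6 could be read in these libraries, while FOXC2 and PRRX1 were too weak to read. A factor counts as readable when 2 or more libraries hold it at 1 FPKM or above. FOXC2 (ENSG00000176692) was at 0.586 and 0.305 FPKM in sh-TAF15, 0.846 FPKM in sh-NC, 0 FPKM in both TIF1γ libraries, and 0.243, 0.0701 and 0.10 FPKM in vector. PRRX1 (ENSG00000116132) was at 0.0304 and 0.191 FPKM in sh-TAF15, 0.0270 FPKM in sh-NC, 0 and 0.0132 FPKM in TIF1γ, and 0 FPKM in all 3 vector libraries. The highest FOXC2 value rested on an estimated 41 fragments and the highest PRRX1 value on 12, and neither gene entered the main test. Both entered only the alternative with no filter on low values. FOXC2 was higher in each sh library than in any other library, but 13 fragments or fewer stood behind its values outside the sh-TAF15 and sh-NC groups.

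**Figure D1:**
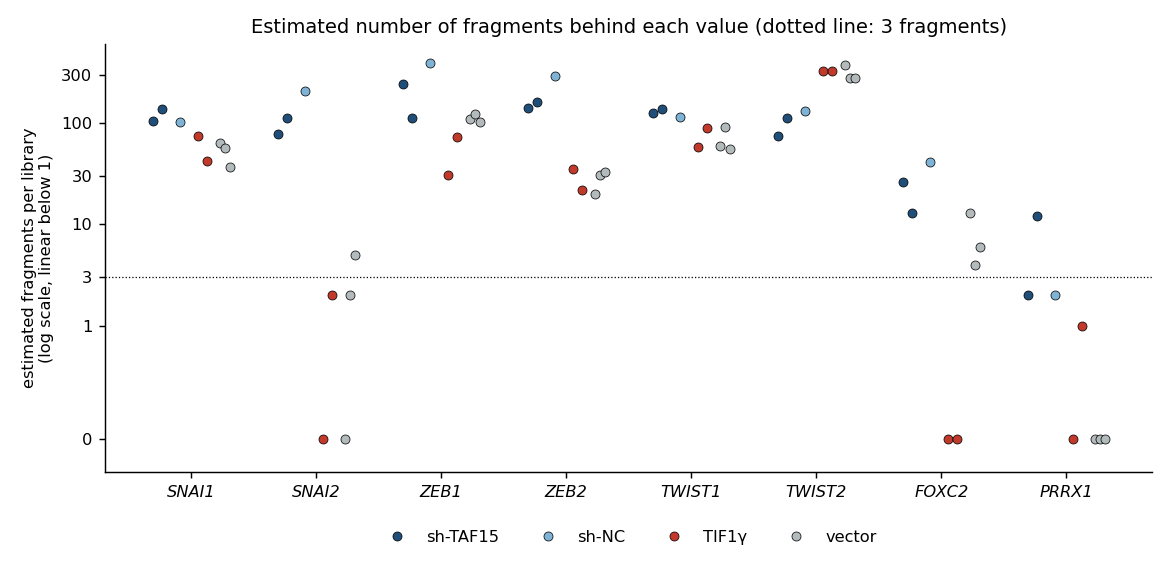
Estimated number of fragments behind each factor in each library (y axis, log scale, linear below 1), with groups by colour and a dotted line at 3 fragments. SNAI2 had 0 to 5 fragments in TIF1γ and vector libraries, FOXC2 had at most 41 and PRRX1 at most 12 in any library, and every other value rested on 20 or more.

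Among the Snail factors, SNAI1 was present in every library and SNAI2 almost only in the sh lines. SNAI1 (ENSG00000124216) was at 4.35 and 5.96 FPKM in sh-TAF15, 3.92 FPKM in sh-NC, 3.11 and 1.59 FPKM in TIF1γ, and 2.18, 1.99 and 1.24 FPKM in vector. SNAI2 (ENSG00000019549) was at 2.15 and 3.23 FPKM in sh-TAF15, 5.23 FPKM in sh-NC, 0 and 0.0587 FPKM in TIF1γ, and 0, 0.0545 and 0.104 FPKM in vector. For both genes all 3 sh libraries lay above all 5 others, as they did for 15.9% of the 24994 genes above 0 in at least 1 library. Shares over this set, here and below, also cover genes too low to enter the tests. SNAI2 made up 33.1% to 57.2% of the Snail pair's summed FPKM in sh libraries, against 0% to 7.75% in TIF1γ and vector libraries.

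The ZEB factors were low throughout, and ZEB1 exceeded ZEB2 in each library. ZEB1 (ENSG00000148516) was at 2.39 and 1.14 FPKM in sh-TAF15, 3.54 FPKM in sh-NC, 0.307 and 0.650 FPKM in TIF1γ, and 0.888, 1.02 and 0.797 FPKM in vector. ZEB2 (ENSG00000169554) was at 0.893 and 1.06 FPKM in sh-TAF15, 1.67 FPKM in sh-NC, 0.227 and 0.124 FPKM in TIF1γ, and 0.106, 0.167 and 0.166 FPKM in vector. The sh libraries were again the 3 highest for both genes, although ZEB1 in sh-TAF15 replicate 3 came close to vector replicate 2 and overlapped the other libraries once the libraries were scaled to each other. ZEB1-AS1, a transcript on the opposite strand beside ZEB1, was at 0.637 to 3.49 FPKM in the 8 libraries and passed no test. ZEB2-AS1 was listed at 0 in all. The labels do not say whether counting used strand, so reads of a gene and its antisense neighbour cannot be told apart. The row of the miR-200c host gene was also listed at 0 in all 8 libraries.

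The TWIST factors differed in their pattern: TWIST1 was highest in the sh libraries and TWIST2 lowest there. TWIST1 (ENSG00000122691) was at 5.24 and 6.04 FPKM in sh-TAF15, 4.48 FPKM in sh-NC, 2.46 and 3.40 FPKM in TIF1γ, and 2.08, 3.28 and 1.89 FPKM in vector. TWIST2 (ENSG00000233608) was at 3.91 and 6.08 FPKM in sh-TAF15, 6.25 FPKM in sh-NC, 17.2 and 15.3 FPKM in TIF1γ, and 16.2, 12.3 and 11.6 FPKM in vector. It was the one factor of the 8 whose sh libraries all lay below the others, as 8.91% of genes above 0 did. TWIST2 held 42.8% to 58.3% of the TWIST pair's FPKM in sh libraries, against 78.9% to 88.6% in TIF1γ and vector libraries.

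**Figure D2:**
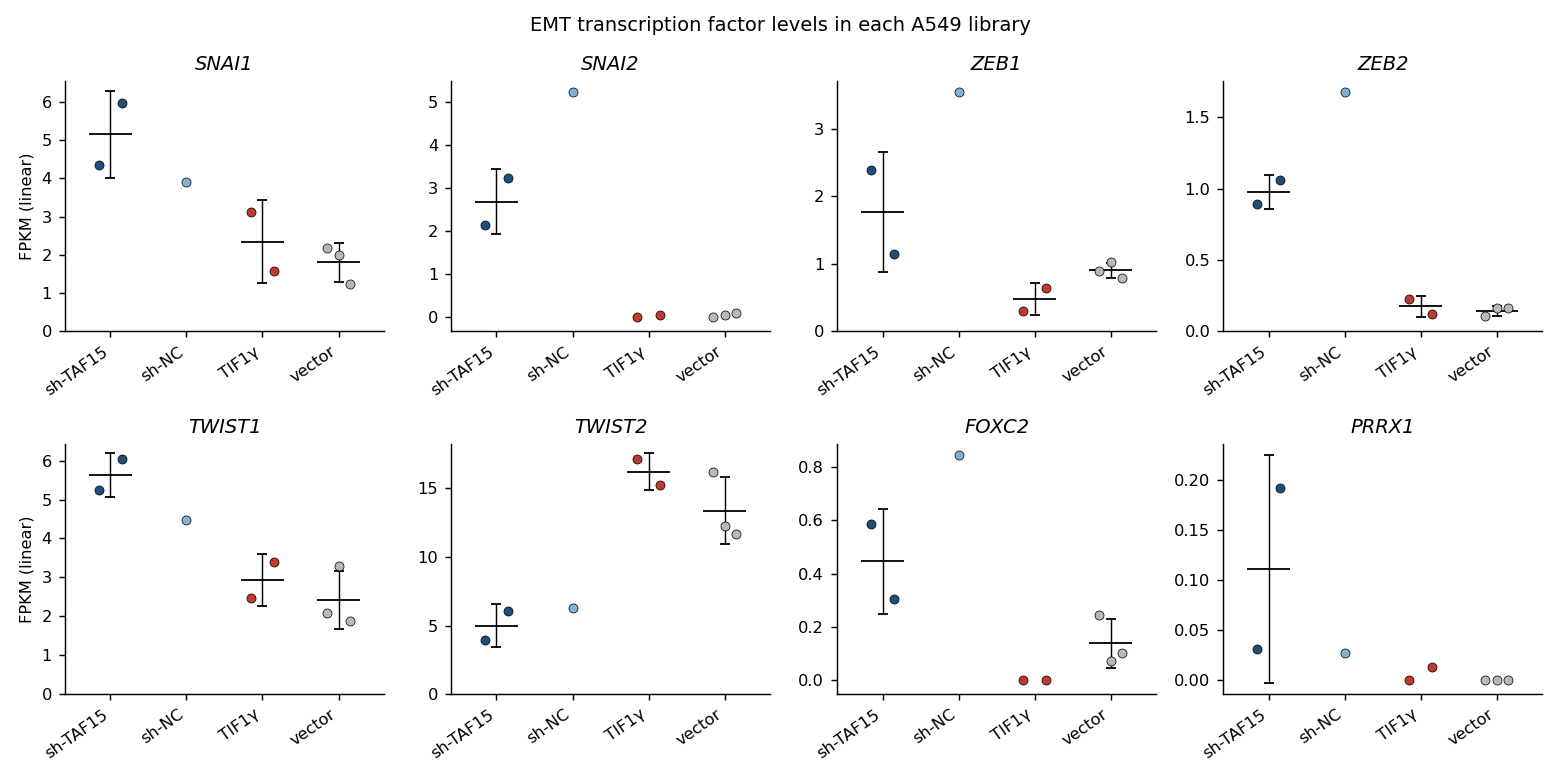
FPKM (linear y axis, scaled per panel) of the 8 factors in each library, 1 point per library, with the mean and SD where a group has 2 or 3 libraries all above 0. The 3 sh libraries lie above the 5 others for 5 of the 6 readable factors and below them for TWIST2. Of genes above 0 in at least 1 library, 15.9% lie above and 8.91% below in this way. ZEB1 overlapped once the libraries were scaled, and SNAI2 and ZEB2 are readable only through sh libraries. FOXC2 and PRRX1 are shown but rest on few fragments.

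The order of mean levels differed between the groups. In sh-TAF15 libraries TWIST1 (5.64 ± 0.57 FPKM, SD, n = 2), SNAI1 (5.15 ± 1.14 FPKM) and TWIST2 (5.00 ± 1.54 FPKM) lay within one another's spread, followed by SNAI2 (2.69 ± 0.76 FPKM), ZEB1 (1.77 ± 0.88 FPKM) and ZEB2 (0.976 ± 0.118 FPKM). In the sh-NC library the order was TWIST2, SNAI2, TWIST1, SNAI1, ZEB1 and ZEB2, with no spread to set it against. In TIF1γ libraries TWIST2 (16.2 ± 1.3 FPKM, n = 2) led TWIST1 (2.93 ± 0.67 FPKM) and SNAI1 (2.35 ± 1.08 FPKM), and ZEB1 (0.478 ± 0.242 FPKM) and ZEB2 (0.175 ± 0.073 FPKM) followed. In vector libraries TWIST2 (13.4 ± 2.5 FPKM, n = 3) led TWIST1 (2.42 ± 0.76 FPKM) and SNAI1 (1.80 ± 0.50 FPKM), which did not differ beyond their spread, and ZEB1 (0.902 ± 0.113 FPKM) and ZEB2 (0.146 ± 0.035 FPKM) followed. The 8 factors summed to 19.5, 24.0 and 26.0 FPKM in the sh libraries and to 15.9 to 23.3 FPKM in the others, so the sums overlapped. Their make-up did not: the TWIST pair held 41.3% to 50.5% of the sum in sh libraries, against 82.5% to 88.5% in TIF1γ and vector libraries. These shares use deposited FPKM, without removal of the GC and length trend described below.

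**Figure D3:**
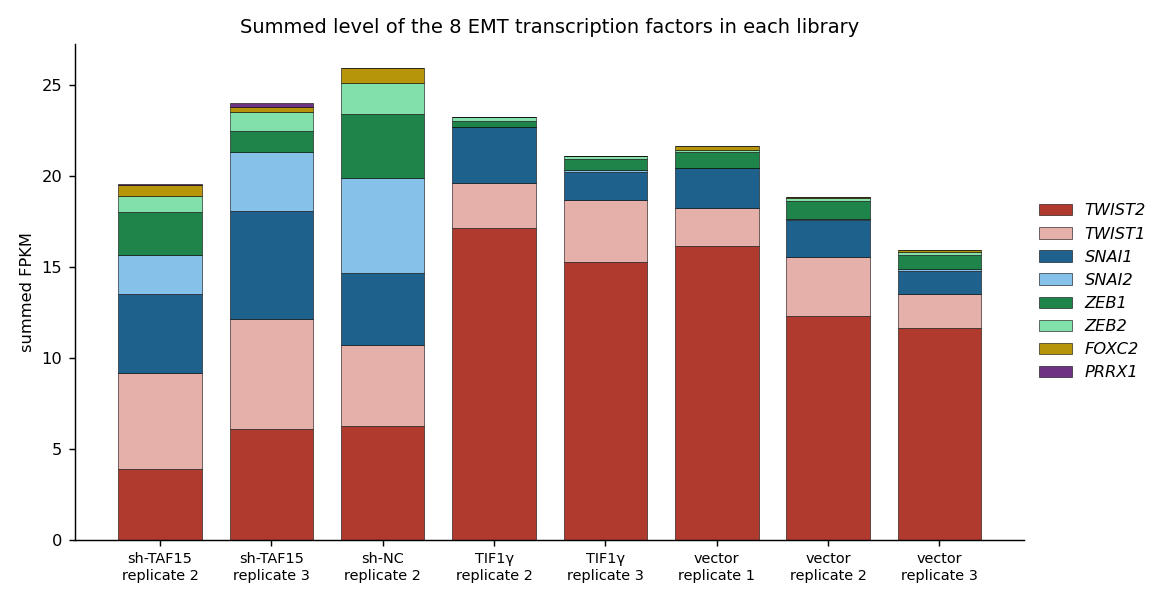
Summed FPKM of the 8 factors in each library (stacked bars, y axis from 0), with replicates named on the x axis. TWIST2 fills most of each TIF1γ and vector bar, while the Snail and ZEB factors take up a larger part of each sh bar.

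TIF1γ overexpression against vector asks whether the factors changed with more TIF1γ, an E3 ubiquitin ligase that limits SMAD4 in the TGF-beta pathway, one of the inducers of EMT. None of the 6 tested factors passed limma's test at an adjusted p under 0.05, where 0.0216% of the 13907 genes tested passed, and none had an unadjusted p under 0.05, where 19.9% of genes did. Fold changes are on the log2(FPKM + 1) scale, which understates the change of weak genes. SNAI1 differed by 0.18 (95% interval -0.45 to 0.80), TWIST1 by 0.16 (-0.45 to 0.77) and TWIST2 by 0.19 (-0.37 to 0.76). SNAI2 differed by -0.03 (-0.60 to 0.54) and ZEB2 by 0.02 (-0.54 to 0.58). ZEB1 had the largest difference at this setting, -0.41 (SE 0.29, 95% interval -1.02 to 0.21), with limma's adjusted p = 0.407. Both TIF1γ libraries lay below all 3 vector libraries for ZEB1, as they did for 11.6% of genes above 0 in at least 1 library, and the groups overlapped for the other 5 readable factors. Transcript GC content splits the factors: SNAI2, ZEB1, ZEB2 and PRRX1 have 38.5% to 41.4% GC, and SNAI1, TWIST1, TWIST2 and FOXC2 have 57.0% to 63.2%. With a GC and length trend removed from each library the ZEB1 difference turned to 0.16, and those of SNAI1, TWIST1 and TWIST2 turned to -0.24, -0.23 and -0.19, so these directions depend on that setting. ZEB2 then had the largest difference, 0.59 (limma adjusted p = 0.617).

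TAF15 knockdown against sh-NC asks the same of TAF15, an RNA-binding protein that also takes part in transcription initiation. Again 0 of 6 factors passed limma's test, where 0.0575% of genes passed. SNAI2 was the only one with an unadjusted p under 0.05, where 5.63% of genes were. Its difference was -0.81 (SE 0.36, 95% interval -1.58 to -0.05, limma adjusted p = 0.85), and both sh-TAF15 libraries lay below the sh-NC library. ZEB1 differed by -0.78 (-1.60 to 0.05), ZEB2 by -0.46 (-1.22 to 0.29) and TWIST2 by -0.35 (-1.10 to 0.40). SNAI1 differed by 0.25 (-0.58 to 1.09) and TWIST1 by 0.22 (-0.61 to 1.04). Both sh-TAF15 libraries lay on the same side of the sh-NC library for all 6 readable factors, above it for SNAI1 and TWIST1 and below it for the other 4. Of genes above 0 in at least 1 library, 57.6% had both on one side, a share that also covers genes below the filter. With 1 sh-NC library, which the test assumes to vary like the other groups, these intervals are wide.

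The difference between the TIF1γ effect and the TAF15 knockdown effect was also tested, and 0 of 6 factors passed limma's test or had an unadjusted p under 0.05, where 0.0431% of genes passed and 3.62% had such a p. The largest value was that of SNAI2, 0.78 (95% interval -0.18 to 1.73, limma adjusted p = 0.999).

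The control lines differed from each other in 3 of the 6 tested factors by limma's test, where 11.0% of all genes tested passed. SNAI2 rose by 2.50 in sh-NC against vector (SE 0.34, limma adjusted p = 0.00037), and the sh-NC library lay above all 3 vector libraries. ZEB2 rose by 1.17 (SE 0.33, adjusted p = 0.038), and TWIST2 fell by 1.13 on the log2 scale (SE 0.33, adjusted p = 0.043). ZEB1 differed by 1.15 (SE 0.36, adjusted p = 0.0569), SNAI1 by 0.71 (adjusted p = 0.224) and TWIST1 by 0.57 (adjusted p = 0.313). This comparison shares the vector libraries with the TIF1γ comparison and the sh-NC library with the TAF15 comparison. SNAI2 and ZEB2 reached 1 FPKM in no TIF1γ or vector library and so entered the test only through sh libraries; the count of 3 is therefore not evidence about the factors as a group. With the GC and length trend removed SNAI1 passed (1.30, limma adjusted p = 0.0301), and without scaling ZEB1 passed (1.26, adjusted p = 0.0335). The ZEB2 and TWIST2 calls were lost with the trend removed (0.66, limma adjusted p = 0.256, and -0.53, adjusted p = 0.263), as was the ZEB2 call without any 1 of the 3 vector libraries (limma adjusted p = 0.0528 to 0.0899) and the TWIST2 call without vector replicate 1 or 3 or either sh-TAF15 library (0.0515 to 0.134).

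A further contrast, the mean of the 2 sh groups minus the mean of the TIF1γ and vector groups, was added after the data had been seen, because the libraries fell apart along this line. The 6 readable factors differed without overlap in deposited FPKM, 5 higher and 1 lower in sh libraries. Of the genes above 0 in at least 1 library, 24.8% did so in either direction, a share that also covers genes below the filter. After scaling of the libraries 4 were higher and 1 lower, and ZEB1 overlapped. SNAI2 rose by 2.11 (SE 0.22, limma adjusted p = 1.35e-05) and by 4.68 with a pseudocount of 0.1 in place of 1. ZEB1 rose by 0.97 (SE 0.24, adjusted p = 0.00646), ZEB2 by 0.92 (SE 0.22, adjusted p = 0.00502) and SNAI1 by 0.74 (SE 0.24, adjusted p = 0.0258). TWIST2 fell by 1.40 on the log2 scale (SE 0.22, adjusted p = 0.000341). TWIST1 differed by 0.60 (SE 0.24, adjusted p = 0.0572). These are 5 of 6 tested factors, where 41.6% of all genes tested passed, and the caution on SNAI2 and ZEB2 holds here too. With the GC and length trend removed ZEB1 stood at 0.37 (limma adjusted p = 0.145) and ZEB2 at 0.31 (adjusted p = 0.332), and both calls were lost. Under the same setting SNAI1 stood at 1.41, TWIST1 at 1.23 with adjusted p = 0.00538, SNAI2 at 1.75 and TWIST2 at -0.75, and these 4 passed. The SNAI1 call was lost without TIF1γ replicate 3 (adjusted p = 0.0581) and without sh-TAF15 replicate 3 (adjusted p = 0.0772), and also with the replicate block (adjusted p = 0.0753) and with no filter on low values (adjusted p = 0.0573). TWIST1 passed without TIF1γ replicate 3 (adjusted p = 0.0303) or vector replicate 2 (adjusted p = 0.0435). The construct type, the lines themselves and any handling batch cannot be told apart in this contrast. The 7 fibroblast markers summed to 4.21 to 7.63 FPKM in sh libraries, against 0.998 to 3.25 FPKM in the others, with DCN at 0 in all and THY1 at 0.0849 to 2.64 FPKM over the 8 libraries, and their part in the result was not tested.

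**Figure D4:**
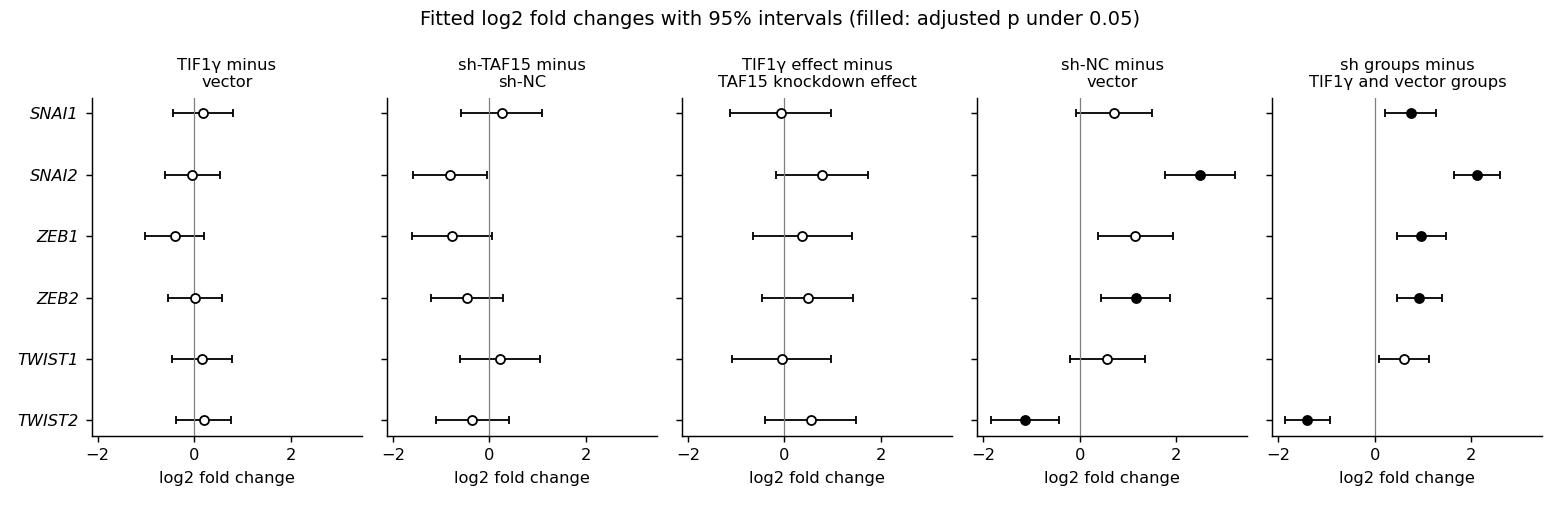
Log2 fold changes of the 6 tested factors on the log2(FPKM + 1) scale with 95% intervals in 5 comparisons, filled where limma's adjusted p was under 0.05. No point is filled in the first 3 panels, SNAI2, ZEB2 and TWIST2 are filled for sh-NC against vector, and all but TWIST1 for the sh groups.

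Genes known to be repressed by the EMT factors, from a list of 25 junction, polarity and keratin genes, were lower in the sh lines. Of 18 tested, 13 fell and 0 rose by limma's test, with a median of -1.29, where 21.1% of all genes tested fell, 20.5% rose and the median was 0.02. Of the 13, KRT19, CLDN3, CLDN4 and MARVELD2 reached 1 FPKM only in TIF1γ or vector libraries and so entered the test only through the libraries where they are high. With the GC and length trend removed 12 fell and the median was -0.89. KRT19, a keratin of simple epithelia, was at 0.775 and 0.603 FPKM in sh-TAF15, 0.243 FPKM in sh-NC, 61.5 and 61.7 FPKM in TIF1γ, and 26.9, 30.8 and 41.6 FPKM in vector, a fall of 5.08 on the log2 scale (SE 0.22, limma adjusted p = 5.94e-09). CRB3 was at 1.83 and 3.58 FPKM in sh-TAF15, 1.17 FPKM in sh-NC, 26.3 and 18.9 FPKM in TIF1γ, and 7.38, 13.6 and 13.5 FPKM in vector, a fall of 2.71 on the log2 scale (SE 0.27, limma adjusted p = 7.67e-06). CLDN7 was at 1.15 FPKM in both sh-TAF15 libraries, 0.71 FPKM in sh-NC, 6.54 and 6.64 FPKM in TIF1γ, and 2.10, 2.95 and 2.46 FPKM in vector, a fall of 1.52 (SE 0.22, adjusted p = 0.000183). The sh libraries lay below all others for these 3 genes. The junction linker JUP (-3.81), the tight junction scaffold TJP3 (-3.62) and the polarity protein LLGL2 (-2.02) also fell. So did the claudins CLDN3 (-2.50) and CLDN4 (-0.97), the mucin MUC1 (-1.35), the desmosomal protein PKP3 (-1.23), the adhesion protein EPCAM (-1.02) and MARVELD2 (-0.69), a protein of tricellular junctions. CDH1, E-cadherin, was at 6.96 and 6.0 FPKM in sh-TAF15, 0.857 FPKM in sh-NC, 8.29 and 10.9 FPKM in TIF1γ, and 5.81, 4.27 and 10.4 FPKM in vector. It fell by 1.37 in the sh groups (SE 0.29, adjusted p = 0.00242), but only the sh-NC library lay below all others, and the sh-TAF15 libraries overlapped vector.

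In the other comparisons the same list gave fewer calls. In sh-NC against vector 10 of 18 fell and 0 rose, where 7.2% of all genes tested fell and 3.79% rose. They were KRT19, JUP, TJP3, LLGL2, CRB3, CLDN3, CDH1, EPCAM, CLDN7 and PKP3. Of these, KRT19 and CLDN3 entered the test only through TIF1γ and vector libraries, where they are high. With the GC and length trend removed 6 fell. In sh-TAF15 against sh-NC none passed limma's test and the median was 0.31, against 0.00 over all genes tested; LLGL2 had the lowest p there (1.65, SE 0.34, adjusted p = 0.125), followed by CDH1 (1.92, SE 0.46, adjusted p = 0.231). In TIF1γ against vector none passed, 13 of 18 values were above 0 and the median was 0.67, against 0.02 over all genes tested. CLDN7 had the lowest p (1.07, SE 0.26, adjusted p = 0.2), with both TIF1γ libraries above all 3 vector libraries. That median was 0.28 with the GC and length trend removed.

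Genes known to rise in EMT split in the sh lines. Of 18 tested of 23 listed, 10 rose and 2 fell, with a median of 0.82, where 20.5% of all genes tested rose, 21.1% fell and the median was 0.02. TNC and COL1A2 among the 10 reached 1 FPKM only in sh libraries and so entered the test only through them. The gelatinase MMP2 was at 26.9 and 24.8 FPKM in sh-TAF15, 25.5 FPKM in sh-NC, 1.55 and 2.94 FPKM in TIF1γ, and 0.959, 0.788 and 1.74 FPKM in vector, a rise of 3.22 (SE 0.26, limma adjusted p = 1.31e-06). CDH2, N-cadherin, was at 10.7 and 8.10 FPKM in sh-TAF15, 14.5 FPKM in sh-NC, 2.00 and 3.18 FPKM in TIF1γ, and 3.67, 3.02 and 3.61 FPKM in vector, a rise of 1.53 (SE 0.24, adjusted p = 0.000344). The matrix genes COL5A1 (2.30), TNC (1.80), SPARC (1.73), COL1A1 (1.26) and COL1A2 (1.18), the receptor tyrosine kinase AXL (1.48), the hyaluronan receptor CD44 (0.92) and the actin ACTA2 (0.71) also rose, while the matrix protein FN1 (-1.79) and the calcium-binding protein S100A4 (-1.60) fell. COL1A1 and COL1A2 are also among the fibroblast markers given above. In sh-NC against vector 7 rose, among them MMP2, TNC, SPARC, COL5A1, AXL and CDH2, and 2 fell (S100A4 and FN1), where 3.79% of all genes tested rose and 7.2% fell. None passed in TIF1γ against vector (median 0.21) or in sh-TAF15 against sh-NC (median -0.13).

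**Figure D5:**
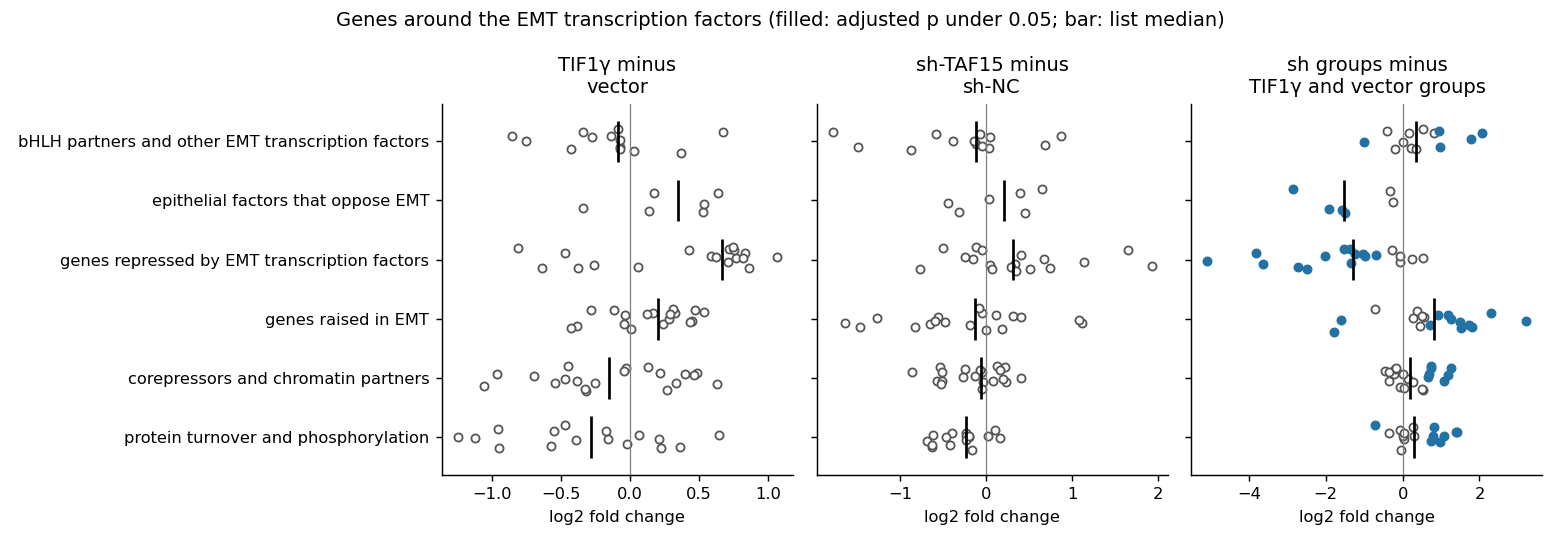
Log2 fold changes, on the log2(FPKM + 1) scale, of tested genes in 6 lists around the EMT factors, 1 point per gene, filled where limma's adjusted p was under 0.05, with a bar at each list's median. No point is filled for TIF1γ or sh-TAF15, and the repressed genes lie mostly left of 0 in the sh groups.

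Among other transcription factors linked to EMT and the helix-loop-helix partners of TWIST, 4 of 13 tested rose and 1 fell in the sh groups, where 20.5% of all genes tested rose and 21.1% fell. These were RUNX2 (2.07), the chromatin protein HMGA2 (1.78), FOXQ1 (0.98) and the E protein TCF4 (0.96), with PRRX2, the paralog of PRRX1, lower (-0.99). Removing the GC and length trend gave 5 higher and 0 lower. RUNX2 was at 4.47 and 4.84 FPKM in sh-TAF15, 4.66 FPKM in sh-NC, 0.119 and 0.344 FPKM in TIF1γ, and 0.239, 0.424 and 0.223 FPKM in vector, so it entered the test only through sh libraries. Of the transcription factors that oppose EMT, 6 of 15 were tested and 4 fell in the sh groups: ELF3 (-2.85), FOXA1 (-1.91), FOXA2 (-1.56) and KLF4 (-1.49). In sh-NC against vector 3 rose and 1 fell in the first list (RUNX2, HMGA2 and TCF4 higher, PRRX2 lower), and 3 fell in the second (ELF3, FOXA2 and FOXA1), where 3.79% of all genes tested rose and 7.2% fell. In TIF1γ against vector the lowest p in these lists were those of ELF3 (0.64, limma adjusted p = 0.208) and HMGA2 (-0.75, adjusted p = 0.211). In sh-TAF15 against sh-NC they were those of ETS1 (-1.79, adjusted p = 0.174) and HMGA2 (-1.49, adjusted p = 0.284), and 0 genes of either list passed in these comparisons.

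Corepressors and chromatin partners, through which the Snail, ZEB and TWIST proteins silence genes, gave 7 higher and 0 lower of 20 tested in the sh groups, where 20.5% of all genes tested were higher and 21.1% lower. They were the Polycomb proteins SUZ12 (1.25), BMI1 (1.18), EZH2 (0.69) and EED (0.66), the deacetylase HDAC2 (1.07) and the corepressors RCOR1 (0.75) and SIN3A (0.74). With the GC and length trend removed 3 were higher and 1 lower. None passed in the other comparisons. Of 16 tested genes that control the turnover or phosphorylation of the factors, 7 rose and 1 fell in the sh groups. Over all genes tested, 20.5% rose and 21.1% fell. The F-box proteins FBXO45 (1.39), BTRC (0.81), FBXW11 (0.79) and FBXL5 (0.74), MDM2 (1.42), COPS2 (1.08) and the deubiquitinase USP37 (0.97) were higher, and the phosphatase CTDSP1 (-0.71) was lower. With the GC and length trend removed 1 was higher and 0 lower, so this count depends on that setting. FBXO45, a ubiquitin ligase component for these factors, was the one gene of that list to pass in sh-NC against vector (1.34, SE 0.35, limma adjusted p = 0.0257). In that comparison 3.79% of all genes tested rose and 7.2% fell.

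The protein-coding genes whose log2(FPKM + 1) values followed each factor most closely were found by Pearson correlation over the 8 libraries, which fall into the 3 sh and the 5 other libraries, so the values are a description. SNAI2 and ZEB2 had the same leading pair, LHFPL6 (0.99 with both) and the cytokine IL6 (0.99 with both). The third was HBEGF for SNAI2 (0.98) and BCAT1 for ZEB2 (0.98). LHFPL6, IL6, HBEGF and BCAT1 stayed under 1 FPKM in every TIF1γ and vector library, as SNAI2 and ZEB2 did. They entered the search only through sh libraries, so high correlations among them were partly fixed in advance. IL6 was at 6.67 and 11.3 FPKM in sh-TAF15, 24.7 FPKM in sh-NC, 0.645 and 0.737 FPKM in TIF1γ, and 0.301, 0.226 and 0.674 FPKM in vector. For ZEB1 the nearest were NUP50, CWC22 and BAG5 (0.98 each), and for SNAI1 MACROH2A2 (0.99), ARPC5L (0.97) and MAEA (0.97). Genes near TWIST1 included CHD8 (0.98) and NMNAT1 (0.95), and TWIST2 was nearest to NMNAT3 (0.99), SPRED2 (0.98) and POLR3D (0.98). A correlation above 0.9 was shared by 21 of the 9897 genes compared for TWIST1 and by 517 of 9898 for ZEB1, the fewest and the most among the 6 factors.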

How the data were processed

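RNA from 8 libraries of 4 stable A549 lines was analysed, and the 4 other labelled samples were not analysed here. The authors deposited FPKM values per Ensembl gene, with no logarithm. How they were computed from reads is not given in the sources used here. The submitters' processing notes name cutadapt 1.9.1, HISAT2 2.0.1, HTSeq 0.6.1 and GRCh37. Per the labels' protocols, RNA had an integrity number above 6.5 and was enriched by poly(A) selection or ribosomal RNA removal. Symbols came from a gene name table and GENCODE 29 and matched 52324 of 57879 identifiers, and no GRCh37 coordinates are given.

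A gene entered the tests when 2 or more libraries held it at 1 FPKM or above (13907 genes). The 19 genes listed at 0 in a library but at 100 FPKM or more in another were set aside. Libraries were brought to a common scale by the mean log2 ratio to the average library, after trimming 30% of ratios and 5% of abundances from both ends. They were tested as log2(FPKM + 1) with limma 3.58.1 in R 4.3.3 (trend and robust), with 4 groups in 1 fit and Benjamini-Hochberg adjustment over all genes tested. The fit has 4 residual degrees of freedom. The test was run on simulated data first. Fragments per library and per gene were estimated from the steps between low values and cover counting error only. GC and length trends were fitted with mgcv 1.9.3.

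The 8 factors and the gene lists were chosen with earlier results of these data known. From each list the text names genes that passed in a comparison, or else up to 4 with the lowest p, and for each readable factor the 3 protein-coding genes (mean of 2 FPKM or more) with the highest correlation. Some genes that this rule names are not reported here. Alternatives covered the pseudocount, filter, scaling, base composition, replicate number, the groups in the fit and each library in turn.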

Additional observations from a re-analysis of the deposited data

How the results depend on the processing

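The count of 0 factors passing held under every alternative run for TIF1γ against vector, sh-TAF15 against sh-NC and the difference of these effects. For sh-NC against vector the count was 3, and 1 with the replicate block, with the replicate block and GC and length trend removed, or with only the groups of the comparison fitted; leaving out 1 library gave 1 to 3. For the sh groups it was 5, and 3 with the replicate block and trend removed; leaving out 1 library gave 4 to 6. In sh-NC against vector the count was 2 with a pseudocount of 0.1, the trend removed, no filter, or the filter at 2 FPKM. The ZEB2 call there was lost with that pseudocount (2.73) and with the replicate block (1.14). For the sh groups the count was 4 with the block, the trend removed or the filter at 2 FPKM, and 6 without scaling. In both comparisons the filter at 2 FPKM left 5 factors to test, and ZEB2 was not among them. With no filter FOXC2 and PRRX1 also entered, and 5 of 8 passed for the sh groups, where 4998 of 24975 genes did. SNAI1 was not among the 5, which included FOXC2 or PRRX1, factors too weak to read. The calls of SNAI2 in both comparisons held in each alternative run. Removing the GC and length trend turned the TIF1γ differences of SNAI1 (-0.24), SNAI2 (0.37), ZEB1 (0.16), TWIST1 (-0.23) and TWIST2 (-0.19), and with the replicate block as well they were -0.087, 0.28, 0.10, -0.25 and -0.011. ZEB2 turned to -0.0065 with the block alone. Leaving out 1 library turned some TIF1γ values, which ranged from -0.090 to 0.45 for SNAI1, -0.080 to 0.0098 for SNAI2, -0.028 to 0.073 for ZEB2 and -0.082 to 0.41 for TWIST1. In sh-TAF15 against sh-NC, the trend removal turned SNAI1 (-0.017) and TWIST1 (-0.044, and -0.056 with the block). In the difference of effects, leaving out 1 library gave -0.36 to 0.20 for SNAI1 and -0.30 to 0.17 for TWIST1. None of these reversed values belonged to a call, and the cause was not tested.

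Over all genes tested, the number passing ranged over the alternatives from 0 to 277 for TIF1γ (3 in the main setting), 2 to 186 for sh-TAF15 (8), 1 to 103 for the difference (6), 503 to 1700 for sh-NC against vector (1528) and 2761 to 6388 for the sh groups (5782). Without scaling the median of all genes moved to 0.16 in sh-NC against vector and to 0.15 in the sh groups. The split of higher to lower calls was then 899 to 782 and 3841 to 2305, against 527 to 1001 and 2845 to 2937 with scaling. Whether the replicate numbers pair the libraries cannot be decided here, because the deviations of 2 libraries in a group mirror each other. Deviations of same-numbered libraries correlated at 0.17 and 0.12 between TIF1γ and vector but at -0.37 and -0.24 between vector and sh-TAF15. The sh-NC library could not be left out of the comparisons that use it. FOXC2, PRRX1 and, outside the sh lines, SNAI2 rest on few fragments, and the single sh-NC library limits every comparison with it.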
